A study of Mus musculus with 48 samples.

Results

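The T cell receptor (TCR) recognises antigen but cannot signal alone. It is carried to the cell surface by the CD3 chains, encoded by Cd3d, Cd3e, Cd3g and Cd247 (the zeta chain), and the first steps behind it use the kinases Lck, Fyn and Zap70 and the adaptors Lat and Lcp2 (SLP-76). These 9 genes, chosen by name from the TCR complex and its proximal signalling machinery, were described here among the 53345 genes measured by bulk RNA-seq of mouse splenic CD4 T cells. All 9 were found in the count and FPKM matrices, and all 9 passed the filter on low counts in every fit.

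Female C57BL/6 mice of 8 to 12 weeks received 2 doses of 500 µg of isotype antibody or of MHC II blocking antibody, which keeps the TCR of CD4 T cells from its ligand, followed by PBS or 25 µg of 1 of 3 human IL-2 molecules fused to an Fc domain, and spleens were taken on day 4. The molecules were wildtype (WT) IL-2, the attenuated mutein H16R with 1 substitution, and the more attenuated 3x mutein with 3 substitutions. Tregs were the CD25-positive fraction of a bead kit (8 groups of 4 mice, 32 libraries) and Tcons were the CD25-negative flow-through of 16 of those mice (8 groups of 2). Il2ra, which encodes CD25 and on whose product the fractions were split, averaged 370 CPM (counts per 1000000, scaled by TMM) in isotype PBS Tregs, 645 in isotype 3x Tregs and 812 in MHC II block 3x Tregs. Against PBS of the same arm Il2ra was higher in both 3x groups, in both H16R groups (0.44 ± 0.09 and 0.47 ± 0.09, log2 fold change ± SE) and after WT IL-2 with isotype (0.24 ± 0.09). It did not pass after WT IL-2 with the block (0.08 ± 0.09).

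The libraries held 18.3M to 51.2M expected counts in Tregs and 31.3M to 51.95M in Tcons (M = 1000000). Foxp3, the Treg-defining transcription factor, lay between 687 and 1249 CPM in Tregs and between 46.8 and 183 in Tcons, so Treg transcripts were present in the Tcon fraction. A few libraries stood apart by markers of other cells. The MHC II block WT IL-2 Treg replicate 1 had summed B cell markers of 583 CPM, myeloid markers of 706.5 CPM and plasma cell markers of 3155 CPM, and the isotype PBS Treg replicate 1 had B cell markers of 620 CPM. In the isotype WT IL-2 Tcon replicate 2 the 6 Treg markers summed to 1549 CPM, against 352.6 to 795 in the Tcon libraries of the other 7 groups. Results on the members that rest on these libraries are given with and without them. The MHC II block WT IL-2 Tcon replicate 1 was not left out with them, although it held the most myeloid markers of all Tcon libraries (766.9 CPM). It was also the lowest Tcon library in Cd3e, Cd3g, Cd247, Lck, Zap70, Lat and Lcp2. In bulk RNA, fewer T cells in a fraction and less RNA per T cell cannot be told apart, and 2 isotype WT IL-2 Treg libraries that carry the same mouse label are named replicates 3a and 3b. They were counted as separate mice, and if they are 1 mouse this group holds 3 animals and not 4. Without either one, 8 of 9 members still rose after WT IL-2 with isotype and 8, against 9 with both, were lower with the block in WT IL-2 Tregs.

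In a T cell LCK, held at the membrane and on the CD4 coreceptor, phosphorylates the CD3 and zeta tails once the TCR meets its peptide on MHC II. ZAP70 then docks on these tails and phosphorylates LAT and SLP-76, which assemble the enzymes of calcium, protein kinase C and Ras signalling, while FYN acts beside LCK. Tregs need this signal for their homeostasis and also need IL-2, which signals through the transcription factor STAT5.

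Cd3d, Cd3e and Cd3g form 1 cluster on chromosome 9 (GRCm38), in which Cd3g (44969572 to 44980431, minus strand) and Cd3d (44981786 to 44987339, plus strand) start 1355 bases apart and run away from each other, and Cd3e (44998740 to 45009627, minus strand) follows. Cd247 and Zap70 lie on chromosome 1, Lck on 4, Lat on 7, Fyn on 10 and Lcp2 on 11. Promoter sequences of 5 members are printed because these are the ones whose levels carried the comparisons, the divergent Cd3g and Cd3d pair that moved together, Cd247, and the kinases Zap70 and Fyn, which were the least alike of all pairs. Each is the 250 bases before the RefSeq transcription start (GRCm38.p6), of which 215 are shown for Fyn, read 5′ to 3′ on the gene's strand, and capitals mark matches on either strand to GGAAGT, the core bound by ETS factors, and to TTCNNNGAA, the core bound by STAT5.
Cd3d, chr9:44981536-44981785 (+): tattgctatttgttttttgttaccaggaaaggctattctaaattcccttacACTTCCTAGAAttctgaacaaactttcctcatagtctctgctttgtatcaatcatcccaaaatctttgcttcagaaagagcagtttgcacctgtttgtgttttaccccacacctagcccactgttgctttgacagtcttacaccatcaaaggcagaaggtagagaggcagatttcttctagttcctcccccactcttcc
Cd3g, chr9:44980432-44980681 (-): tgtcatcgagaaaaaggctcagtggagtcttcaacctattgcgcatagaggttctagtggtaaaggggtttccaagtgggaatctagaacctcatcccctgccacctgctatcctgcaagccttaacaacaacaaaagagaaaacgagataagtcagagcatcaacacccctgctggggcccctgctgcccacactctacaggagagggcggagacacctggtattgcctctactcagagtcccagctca
Cd247, chr1:165788431-165788680 (+): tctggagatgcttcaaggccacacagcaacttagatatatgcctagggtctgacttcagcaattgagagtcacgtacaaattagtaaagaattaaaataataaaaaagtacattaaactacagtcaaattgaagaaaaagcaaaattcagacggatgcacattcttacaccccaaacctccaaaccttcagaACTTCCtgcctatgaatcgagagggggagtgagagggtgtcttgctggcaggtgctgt
Zap70, the most upstream start, chr1:36761548-36761797 (+): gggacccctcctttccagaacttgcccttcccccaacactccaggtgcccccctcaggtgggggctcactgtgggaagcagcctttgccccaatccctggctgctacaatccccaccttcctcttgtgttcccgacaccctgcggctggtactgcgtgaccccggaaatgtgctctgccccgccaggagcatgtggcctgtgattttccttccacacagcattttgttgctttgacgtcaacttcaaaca
Fyn, chr10:39369549-39369763 (+): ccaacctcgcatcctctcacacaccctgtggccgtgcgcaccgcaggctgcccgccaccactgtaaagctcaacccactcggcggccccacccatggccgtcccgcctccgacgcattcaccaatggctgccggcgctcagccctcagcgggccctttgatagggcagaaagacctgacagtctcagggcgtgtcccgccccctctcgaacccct

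In Cd3d the match to TTCNNNGAA lies 197 bases before the start and overlaps the ETS match, so that both share the capitals. Cd247 holds 1 ETS match, 58 bases before its start, and its window lies within exons of the noncoding gene Gm16565. The windows of Cd3g, Fyn and this Zap70 start hold neither. The 9 genes have 12 windows in all, since Zap70 has 3 starts and Lck 2. TTCNNNGAA was found in 1 of the 12 and in 7.02% of the 32851 windows of this length in the genome's RefSeq table, and GGAAGT was found in 6 of the 12, of 5 genes, and in 19.7% of all windows. TGTGGT, bound by RUNX factors, was found in 2 of the 12 (14.0% of all windows), CANNTG, the E-box, in 10 (66.2%) and TGANTCA, the AP-1 site, in 0 (6.75%). A match describes letters and does not show binding.

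The members were all well expressed in Tregs. Per unit length, by median FPKM over the 32 libraries, Cd3g was highest at 460 FPKM, followed by Lck at 387, Lat at 319, Cd3e at 232, Cd247 at 231, Cd3d at 217, Fyn at 203, Lcp2 at 173 and Zap70 at 124. Within a library the FPKM ratio of Cd3d to Cd3e was 0.867 to 1.07 with a median of 0.958, and that of Cd247 to Cd3e was 0.877 to 1.29 with a median of 1.01. Cd3g stood at 2.02 times Cd3e (1.75 to 2.57). These ratios depend on the lengths used: per kilobase of all annotated exons the medians were 2.38 for Cd3d, 1.77 for Cd3g and 0.859 for Cd247. By group means, the highest and lowest Treg groups differed 1.69-fold in Cd3d, the most variable member, and 1.26-fold in Lcp2, the least.

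With isotype antibody, IL-2 raised most of the machinery in Tregs, and Cd3d had the largest rise with each molecule. After WT IL-2, 8 of 9 members rose against PBS, where 26.0% of the 12392 tested genes rose. After H16R all 9 rose (31.4% of tested genes), and after the 3x mutein 7 of 9 rose (31.3%). The median log2 fold change of the 9 members was 0.33, 0.26 and 0.19 for the 3 molecules, beside -0.01 over all tested genes each time. The 3 comparisons share the same 4 PBS mice.

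Cd3d encodes the delta chain, which pairs with epsilon. Its CPM in isotype PBS Tregs was 272, 256, 283 and 209 (replicates 1 to 4), against 401, 396, 407 and 359 after WT IL-2, 420.4, 435, 436 and 399 after H16R and 355, 369.7, 394 and 352 after the 3x mutein. All 12 IL-2 libraries lay above all 4 PBS libraries. The log2 fold change was 0.61 ± 0.07 (SE), 0.73 ± 0.07 and 0.54 ± 0.07, with edgeR adjusted p of 1.2e-07, 2.2e-09 and 4.9e-07. Cd3g, the gamma chain, which also pairs with epsilon, read 367, 367, 404 and 346 CPM in PBS mice and 556, 581, 587 and 529 after WT IL-2. After H16R Cd3g read 557, 554, 542 and 539 and after 3x 454, 487, 509.6 and 443, again with no overlap, and its log2 fold changes were 0.60 ± 0.06, 0.56 ± 0.06 and 0.36 ± 0.06. Cd3e, shared by both CD3 pairs, went from a mean of 248 ± 40.6 CPM (SD, n = 4) in PBS Tregs to 363 ± 25.5, 379.7 ± 14.7 and 355 ± 7.36. The groups of Cd3e did not overlap with PBS either, and the log2 fold changes were 0.55 ± 0.09, 0.62 ± 0.09 and 0.53 ± 0.09.

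Cd247 encodes the zeta chain, whose long tail holds most of the phosphorylation motifs of the complex. It read 303, 292, 320.1 and 279 CPM in isotype PBS Tregs, 390, 385, 375 and 348 after WT IL-2, 427, 417, 468 and 413 after H16R and 391, 383, 414 and 408 after 3x. Each IL-2 group lay wholly above PBS, with log2 fold changes of 0.33 ± 0.06, 0.53 ± 0.06 and 0.43 ± 0.06. Of the kinases, Zap70 read 257, 242, 271 and 241 CPM in PBS Tregs, 319, 343, 331 and 318 after WT IL-2, 291, 288, 297 and 311 after H16R and 248, 256, 264 and 233 after 3x. It rose after WT IL-2 (0.37 ± 0.06) and H16R (0.24 ± 0.06), with every library above PBS, while after 3x its range overlapped that of PBS and the difference was 0.00 ± 0.06 (edgeR adjusted p = 0.97). Fyn read 489, 505, 541 and 529.5 CPM in PBS Tregs, 609.9, 601, 626 and 601 after WT IL-2, 619.6, 587, 605 and 617 after H16R and 529, 575, 563 and 548 after 3x. It rose with all 3 molecules, by 0.24 ± 0.04, 0.24 ± 0.04 and 0.11 ± 0.04, and the 3x libraries alone overlapped PBS.

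Lck and the adaptors Lcp2 and Lat had log2 differences of 0.07 to 0.26 in this arm. Lck rose after WT IL-2 (0.18 ± 0.05) and H16R (0.21 ± 0.05) and had a log2 difference of 0.08 ± 0.05 after 3x (edgeR adjusted p = 0.22). Lcp2, whose product SLP-76 bridges LAT to the VAV exchange factors, rose with all 3 by 0.20 ± 0.05, 0.26 ± 0.05 and 0.17 ± 0.05, from 452, 488, 502 and 503 CPM in PBS Tregs to 585, 568, 602 and 569.8 after H16R, with no overlap between PBS and any IL-2 group. Lat, the membrane scaffold, was the exception for WT IL-2 (0.07 ± 0.08, edgeR adjusted p = 0.46), and it rose after H16R (0.21 ± 0.08) and 3x (0.19 ± 0.08) although its PBS libraries, 367, 379, 423 and 322 CPM, spread into the IL-2 ranges.

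Other markers moved with these rises. The 6 CD4 T cell markers summed to 2376 to 2643 CPM in isotype PBS Tregs and to 2936 to 3310 CPM over the isotype IL-2 groups, and the 6 Treg markers went from 2933 to 3583 CPM to 4508 to 5035 CPM. Plasma cell markers (Jchain, Sdc1, Mzb1) summed to 1518 to 1830 CPM in isotype PBS Tregs, 644 to 780.2 after WT IL-2, 196 to 448 after H16R and 84.0 to 181 after 3x. B cell markers went from 123 to 620 CPM in PBS Tregs to 28.6 to 92.4 CPM over the IL-2 groups. The part of these shifts in the members' rises was not tested. Without the 2 Treg libraries that stood apart, the counts of 8, 9 and 7 members remained the same.

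**Figure D1:**
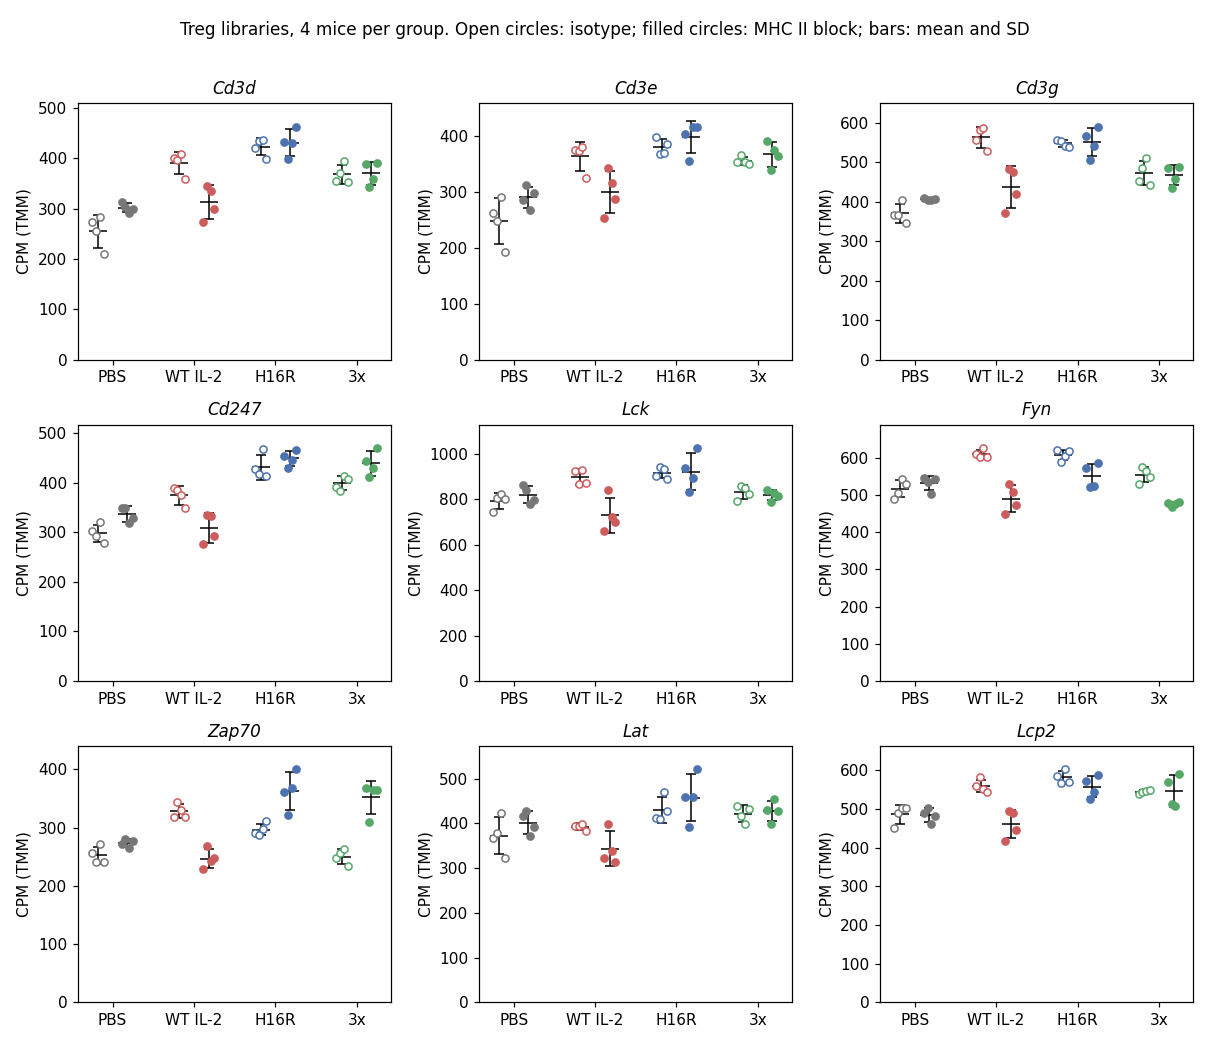
CPM (counts per 1000000, TMM-scaled) of the 9 members in every Treg library, 4 mice for each of 8 groups, with open circles for isotype antibody, filled circles for MHC II block, and bars for the mean and SD. The CD3 chains of the isotype IL-2 groups sit above isotype PBS, while the filled WT IL-2 points fall back toward PBS.

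With MHC II blocked, WT IL-2 and the muteins gave different results. After WT IL-2 no member rose, and 4 of 9 fell, where 13.7% of tested genes fell: Lck (-0.15 ± 0.05), Fyn (-0.10 ± 0.04), Zap70 (-0.13 ± 0.06) and Lat (-0.21 ± 0.08), with edgeR adjusted p between 0.039 and 0.084. Every member's WT IL-2 range overlapped that of PBS. The 4 calls depended on single libraries. Without the library that stood apart (WT IL-2 replicate 1) and the isotype PBS one, Cd3g rose (0.19 ± 0.06), Lat fell (-0.19 ± 0.08) and the other 7 passed no threshold, and the count of 4 went to 0 without MHC II block PBS replicate 1 or MHC II block WT IL-2 replicate 4, to 1 without PBS replicate 2, and to 2 without PBS replicate 4 or WT IL-2 replicate 1. The myeloid markers of this group summed to 102 to 706.5 CPM, against 77.5 to 107 in MHC II block PBS Tregs. Of the NK markers, Ncr1 was at 8.59 to 14.5 CPM against 3.32 to 4.73, and Nkg7 at 66.8 to 81.55 against 27.2 to 32.2. Klra8 was higher too, while Eomes and Klrb1c overlapped. The part of these shifts was not tested.

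H16R raised 8 of 9 members despite the block (32.7% of tested genes rose). Cd3d read 313, 304, 291 and 299.5 CPM in MHC II block PBS Tregs, 273, 345, 335 and 299 after WT IL-2, 432, 399, 429.9 and 463 after H16R and 388, 342, 359 and 391 after 3x. The H16R and 3x libraries lay above all PBS libraries, while those of WT IL-2 spanned them. The H16R log2 fold changes of the CD3 chains were 0.51 ± 0.07 for Cd3d, 0.45 ± 0.09 for Cd3e, 0.44 ± 0.06 for Cd3g and 0.41 ± 0.06 for Cd247. Zap70 rose by 0.40 ± 0.06, and Lck, Lat and Lcp2 rose by 0.17 ± 0.05, 0.18 ± 0.08 and 0.20 ± 0.05. Fyn was the member that did not pass (0.05 ± 0.04, edgeR adjusted p = 0.29).

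The 3x mutein changed 7 of 9 members under the block, where 73.0% of tested genes changed in 1 direction or the other. It raised 6 of 9, where 34.7% of tested genes rose, and lowered 1, where 38.3% fell. Cd247 rose most (0.37 ± 0.06), from 349.9, 349, 318 and 328 CPM to 444, 411, 430.1 and 470.4. Zap70 followed (0.35 ± 0.06), then Cd3e (0.33 ± 0.09), Cd3d (0.28 ± 0.07), Cd3g (0.19 ± 0.06) and Lcp2 (0.16 ± 0.05). Fyn fell (-0.17 ± 0.04), from 544, 534, 503 and 542 CPM to 479, 468, 475 and 481, with no overlap.

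Markers moved with the H16R and 3x results under the block as well. Foxp3 rose by 0.43 ± 0.06 after H16R and 0.35 ± 0.06 after 3x, beside medians of 0.40 and 0.19 over the 9 members. From MHC II block PBS to H16R and 3x Tregs, the CD4 T cell markers went from 2516 to 2756 CPM to 3146 to 3422 and 2903 to 3133 CPM, and the 7 myeloid markers from 77.5 to 107 CPM to 119 to 160.1 and 133 to 154.5 CPM. Among the latter Itgam went from 2.77 to 4.16 CPM to 20.0 to 32.8 and 33.5 to 46.9 CPM. Nkg7, expressed by NK cells and activated T cells, went from 27.2 to 32.2 CPM to 190.3 to 210.4 and 146 to 216 CPM. The part of these shifts was not tested.

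**Figure D2:**
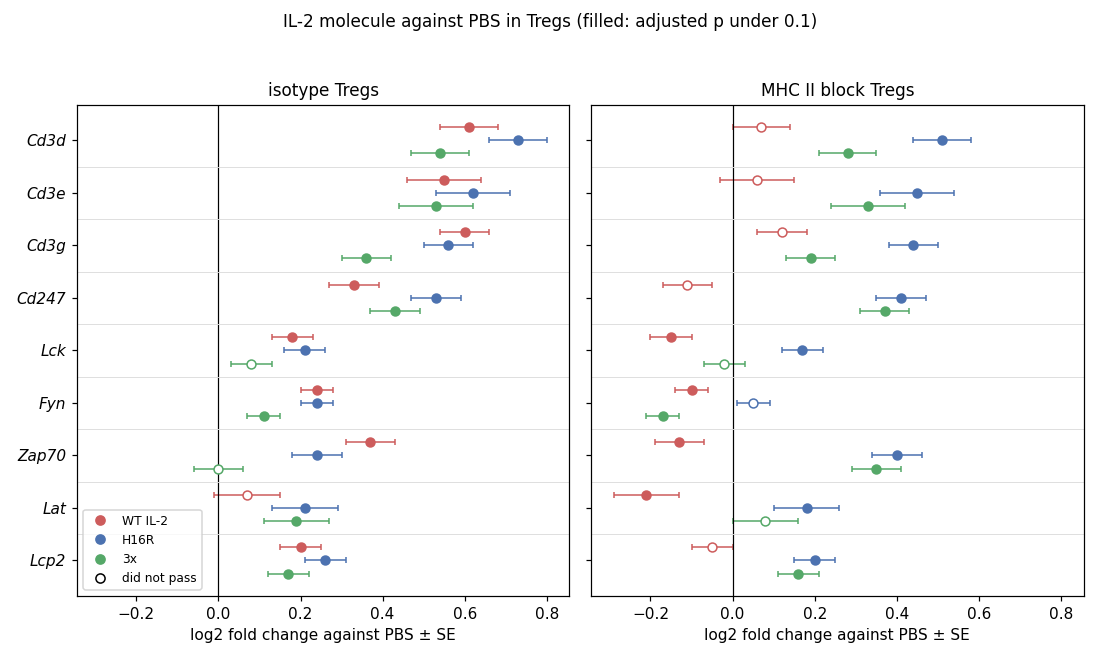
Log2 fold change of each member against PBS of the same antibody arm in Tregs for WT IL-2, H16R and 3x, with bars for the SE and filled symbols where the edgeR adjusted p is under 0.1. Cd3d runs from 0.73 after H16R with isotype antibody to 0.07 after WT IL-2 with MHC II block.

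The arms were also compared directly within each treatment, to ask what blocking antigen presentation did to these genes. In PBS Tregs 2 of 9 members were higher with the block (6.0% of tested genes were higher), Cd3d (0.24 ± 0.07) and Cd247 (0.17 ± 0.06), and without the libraries that stood apart Cd3e (0.26 ± 0.09) passed too. Neither call held in every leave-one-out fit: both were lost without isotype PBS replicate 4 or MHC II block PBS replicate 1, and 1 remained without isotype PBS replicate 2 or MHC II block PBS replicate 2. In WT IL-2 Tregs all 9 were lower with the block (15.3% were lower). The differences ran from -0.39 ± 0.06 in Zap70 and -0.35 ± 0.06 in Cd3g to -0.18 ± 0.08 in Lat. For 7 members no library overlapped between the arms, and the share of all genes without overlap was not counted. Without the libraries that stood apart 7 of 9 were lower, Cd3e (-0.20 ± 0.09, adjusted p = 0.11) and Lat (-0.15 ± 0.08, adjusted p = 0.19) no longer passing by edgeR. With the replicate number as a block, 8 of 9 were lower. Other genes moved with this difference: the summed plasma cell markers went from 644 to 780.2 CPM with isotype to 1558 to 3155 CPM with the block, Ncr1 from 2.71 to 4.79 to 8.59 to 14.5 CPM, and the CD4 T cell markers from 3086 to 3199 to 2130 to 2721 CPM, with no overlap. Foxp3 was lower too (-0.33 ± 0.06), beside a median of -0.28 over the members, and the part of these shifts was not tested.

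In H16R Tregs 2 of 9 members differed between the arms, 1 higher and 1 lower with the block, no larger a share than the 30.7% of tested genes (15.4% higher and 15.2% lower). In 3x Tregs 3 of 9 differed, 2 higher and 1 lower, against 54.1% of tested genes (27.2% and 26.9%). The kinases Zap70 and Fyn were among these members after both muteins, in opposite directions. Zap70 in MHC II block Tregs read 272, 280, 266 and 277 CPM with PBS, 228, 268, 243 and 247 with WT IL-2, 362, 321, 367 and 400.1 with H16R and 368, 309, 365 and 365 with 3x. It was higher with the block than with isotype after H16R (0.28 ± 0.06, edgeR adjusted p = 0.0012) and after 3x (0.47 ± 0.06, edgeR adjusted p = 2.7e-07), and in both cases no library overlapped. Fyn was lower with the block after both (-0.15 ± 0.04 and -0.24 ± 0.04), also with no overlap, its H16R values going from 619.6, 587, 605 and 617 CPM to 573, 522, 525 and 585. Cd247 was higher after 3x (0.11 ± 0.06, adjusted p = 0.091). The other members had differences between -0.07 and 0.08 after H16R and between -0.05 and 0.02 after 3x. Other markers moved with these arm differences. Itgam went from 8.08 to 11.9 CPM with isotype to 20.0 to 32.8 CPM with the block after H16R. After 3x it went from 11.4 to 18.3 CPM to 33.5 to 46.9 CPM. The summed plasma cell markers of these groups were higher with the block too, and the part of these shifts was not tested.

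NK cells also express Zap70, along with Cd247, Lck, Fyn, Lat and Lcp2. The 5 NK markers summed to 221 to 230.3 CPM in MHC II block H16R Tregs and 172 to 242 in MHC II block 3x Tregs, against 74.7 to 88.0 and 69.0 to 77.1 with isotype and 57.5 to 66.2 in MHC II block PBS Tregs. Nkg7, which activated T cells express too, made up most of this sum at 190.3 to 210.4 CPM and 146 to 216 CPM. Ncr1, the more specific NK gene, was at 5.78 to 11.4 CPM and 7.48 to 10.2 CPM in these groups, against 2.02 to 3.01 and 1.62 to 2.69 CPM with isotype and 3.32 to 4.73 CPM in MHC II block PBS Tregs. Eomes and Klrb1c did not follow Ncr1 against MHC II block PBS Tregs. Eomes was at 4.98 to 7.10 CPM with H16R and 6.16 to 7.21 with 3x in the block groups, against 3.11 to 4.09 and 2.97 to 5.47 with isotype and 8.50 to 12.9 in MHC II block PBS Tregs. Klrb1c was at 8.24 to 13.4 and 7.60 to 10.9 CPM, against 4.38 to 7.07 and 5.31 to 11.4 with isotype and 11.4 to 18.4 in MHC II block PBS Tregs, and Klra8 was at most 0.381 CPM in these 5 groups. In MHC II block WT IL-2 Tregs, where Zap70 had its lowest mean, Ncr1 was at 8.59 to 14.5 CPM. The part of NK cells in the Zap70 values was not tested.

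Whether the response to IL-2 itself differed between the arms was tested as an interaction, the log2 fold change against PBS with the block minus that with isotype. For WT IL-2 all 9 interactions were negative and past the threshold, where 7.98% of tested genes were. They were -0.54 ± 0.10 for Cd3d, -0.51 ± 0.08 for Zap70, -0.48 ± 0.12 for Cd3e, -0.48 ± 0.09 for Cd3g and -0.43 ± 0.08 for Cd247, and between -0.34 and -0.25 for Fyn, Lck, Lat and Lcp2. Lat had the highest edgeR adjusted p (0.082) and was lost without the libraries that stood apart, and 8 of 9 passed when replicate numbers formed a block. The interaction of Foxp3 was -0.46 ± 0.08, and the marker shifts given for WT IL-2 Tregs move with these values as well. For H16R 1 of 9 interactions passed, near the 8.47% of tested genes, that of Fyn (-0.19 ± 0.06). The count was 2 without MHC II block H16R replicate 2 or without the libraries that stood apart, and 0 with no low-count filter or with every biotype. The interaction of Zap70 was 0.17 ± 0.08 (edgeR adjusted p = 0.18). For 3x 3 of 9 passed, below the 39.0% of tested genes (20.3% positive and 18.7% negative), with Zap70 at 0.35 ± 0.08, Fyn at -0.28 ± 0.06 and Cd3d at -0.25 ± 0.10, and 5 passed without isotype PBS replicate 3. Zap70 for 3x was the only positive interaction past the threshold among the 27, its response being 0.00 with isotype and 0.35 with the block.

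**Figure D3:**
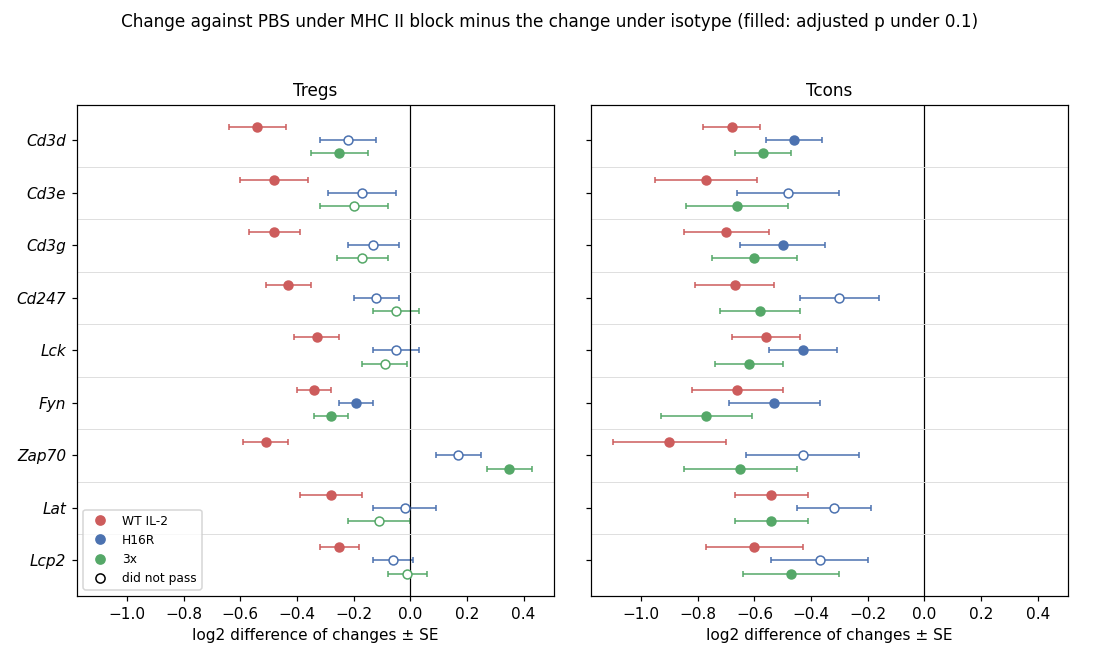
Difference between the MHC II block and isotype arms in the log2 fold change against PBS, for each member and each IL-2 molecule in Tregs, with bars for the SE and filled symbols where the edgeR adjusted p is under 0.1. The WT IL-2 values lie between -0.54 and -0.25, and Zap70 after 3x is at 0.35.

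The order of the 8 Treg groups differed from gene to gene. Cd3d ran from MHC II block H16R through isotype H16R, isotype WT IL-2, MHC II block 3x, isotype 3x, MHC II block WT IL-2 and MHC II block PBS to isotype PBS, and the neighbours whose libraries did not overlap were isotype 3x and MHC II block WT IL-2, and MHC II block PBS and isotype PBS. For Zap70 the top 3 groups were MHC II block H16R, MHC II block 3x and isotype WT IL-2, and isotype H16R was separate from its neighbours on both sides. Fyn had isotype WT IL-2 and isotype H16R on top, separate from isotype 3x, and MHC II block 3x at the bottom. In Cd247 each group overlapped the next.

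The 3 IL-2 molecules were given at 1 dose and read at 1 time, so that they could be compared directly, in 6 pairs (3 within each arm), with p-values adjusted over all genes in each. With isotype antibody H16R and WT IL-2 differed in 1 of 9 members, near the 8.87% of tested genes that were higher after H16R. This was Cd247 (0.21 ± 0.06, edgeR adjusted p = 0.014), and 2 members differed without isotype H16R replicate 4. DESeq2, total-count scaling and both limma fits called 2 members, 1 higher and 1 lower after H16R. A fit of only the groups compared called 3, 2 higher and 1 lower. For the other 8 the 95% intervals of the log2 difference reached from -0.26 (Zap70) to 0.29 (Lat). That of Zap70, -0.26 to -0.02, lay below 0, and all its H16R libraries lay below all its WT IL-2 libraries. The other intervals held 0, so for these members smaller differences in either direction are within the data. The 3x mutein gave lower levels than WT IL-2 in 3 of 9 members (17.7% of tested genes were lower), Zap70 (-0.38 ± 0.06), Cd3g (-0.24 ± 0.06) and Fyn (-0.13 ± 0.04). It gave lower levels than H16R in the same 3 (5.77% were lower), Zap70 (-0.24 ± 0.06), Cd3g (-0.20 ± 0.06) and Fyn (-0.13 ± 0.04), a count that fell to 1 without isotype 3x replicate 1 or replicate 4. The intervals of the 6 members that did not pass reached from -0.23 to 0.27 for 3x against WT IL-2 and from -0.34 to 0.14 for 3x against H16R. Against H16R those of Cd3d (-0.34 to -0.04) and Lck (-0.25 to -0.02) lay below 0.

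With MHC II blocked, the muteins parted from WT IL-2. H16R gave higher levels than WT IL-2 in all 9 members (25.5% of tested genes were higher), from 0.15 ± 0.04 in Fyn to 0.52 ± 0.06 in Cd247 and 0.53 ± 0.06 in Zap70, and all 9 remained so without the library that stood apart. The 3x mutein gave higher levels in 7 of 9 (30.0% were higher), led by Cd247 (0.48 ± 0.06) and Zap70 (0.48 ± 0.06). The interval was -0.06 to 0.19 for Cd3g and -0.16 to 0.02 for Fyn. Without the library that stood apart Lck no longer passed (0.10 ± 0.06, adjusted p = 0.13) and Fyn was lower after 3x (-0.10 ± 0.04, adjusted p = 0.039) by edgeR. Between the muteins, 4 of 9 members were lower after 3x than after H16R (12.5% were lower), Cd3g (-0.25 ± 0.06), Cd3d (-0.23 ± 0.07), Fyn (-0.22 ± 0.04) and Lck (-0.18 ± 0.05), while Zap70 and Cd247 had intervals of -0.17 to 0.07 and -0.16 to 0.07. Markers moved with the differences from WT IL-2. With the block the plasma cell markers summed to 1558 to 3155 CPM after WT IL-2, 566 to 1241 after H16R and 592 to 1383 after 3x, the CD4 T cell markers to 2130 to 2721, 3146 to 3422 and 2903 to 3133 CPM, and the 6 Treg markers to 2724 to 3789, 4236 to 4628 and 4421 to 4930 CPM. Foxp3 lay at 687 to 874, 1056 to 1186 and 999 to 1156 CPM, and the part of these shifts was not tested.

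In Tcons, with 2 mice a group, IL-2 changed few members when the antibody arms were averaged. Cd247 fell after WT IL-2 (-0.22 ± 0.07) and H16R (-0.20 ± 0.07), 1 of 9 members each, which is no more than the 16.4% and 19.2% of the 12526 tested genes that fell. After 3x 0 of 9 changed (17.8% changed in 1 direction or the other), and 0 of 9 differed between MHC II block and isotype averaged over the treatments (40.3% differed). In both of these edgeR left 0 members at an unadjusted p under 0.05, and DESeq2 and limma on FPKM called 0. Single libraries decided these counts: that of H16R went to 0 without isotype H16R replicate 2 or MHC II block PBS replicate 2, that of WT IL-2 was 7 when isotype WT IL-2 replicate 2 was left out and 2 when isotype WT IL-2 replicate 1 or MHC II block WT IL-2 replicate 2 was, and that of the block to 3 and 1 without isotype WT IL-2 replicate 1 and 2.

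The PBS groups of the 2 arms differed in Tcons. In Tcons of isotype PBS mice Cd3d read 221 and 222 CPM, against 296 and 296 with MHC II block. Zap70 read 206 and 197 against 282 and 283, and Cd247 303 and 302 against 399 and 403. All 9 members had both block libraries above both isotype libraries, and 8 of 9 were higher by the test, Lcp2 being the other, where only 1.98% of tested genes were higher. The share of all genes with such a separation of libraries was not counted. The log2 differences of these 8 ran from 0.32 ± 0.09 in Lat to 0.48 ± 0.14 in Zap70. Non-T-cell markers moved with this difference. The 7 B cell markers summed to 909.8 to 963 CPM in the isotype PBS Tcons and 141 to 153 CPM in the block PBS Tcons, and the CD4 T cell markers to 2060 to 2120 and 2615 to 2665 CPM, and their part was not tested.

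Against those PBS groups, the members called after IL-2 were all higher in the isotype arm and all lower in the block arm. Cd247 after H16R was an exception among the values that did not pass, at 300.4 and 284 CPM with isotype, below both isotype PBS libraries. With isotype, WT IL-2 raised 2 of 9 members (Cd3d 0.39 ± 0.07 and Cd3g 0.36 ± 0.11, where 7.49% of tested genes rose), but Cd3g did not pass without the library that stood apart (0.16 ± 0.09, edgeR adjusted p = 0.18), while Cd3d still rose (0.28 ± 0.06). That fit leaves 1 isotype WT IL-2 library, which is assumed to vary like the other groups. H16R raised 3 (Cd3d, Cd3e and Cd3g, 12.5%) and 3x raised 4 (Cd3d, Cd3e, Lck and Lat, 6.26%). With the block, WT IL-2 lowered all 9 (15.4% fell), from -0.29 ± 0.07 in Cd3d to -0.56 ± 0.10 in Cd247, H16R lowered 3 (Cd247, Lck and Fyn, 12.0%) and 3x lowered 5 (Cd3d, Cd3g, Cd247, Lck and Fyn, 12.0%). Cd247 in block Tcons went from 399 and 403 CPM with PBS to 258 and 285 with WT IL-2, 318 and 308 with H16R and 321 and 319.5 with 3x. For every member and molecule the block IL-2 libraries lay below both block PBS libraries. With 2 libraries a group, the share of all genes so separated was not counted. Myeloid markers summed to 528 to 767 CPM in block WT IL-2 Tcons against 95.4 to 105 in block PBS Tcons, plasma cell markers to 2351 to 2474 against 687 to 1043 CPM, and CD4 T cell markers to 1494 to 1850 against 2615 to 2665 CPM. In block H16R and 3x Tcons the myeloid markers summed to 273 to 283 and 343 to 344 CPM, and the CD4 T cell markers to 1955 to 1966 and 1870 to 1953 CPM. The part of these shifts was not tested.

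Within the other treatments the block lowered 1 of 9 members in WT IL-2 Tcons (Cd3d, -0.26 ± 0.07, 4.44% fell), a call lost without the library that stood apart (-0.15 ± 0.06, edgeR adjusted p = 0.26), and 3 of 9 in 3x Tcons (Lck, Fyn and Lat, 18.5% fell). Myeloid genes moved with the fall in 3x Tcons. Lyz2 went from 11.4 to 24.0 CPM with isotype to 81.9 to 83.0 CPM with the block, and Itgam from 7.99 to 9.60 CPM to 26.7 to 30.9 CPM. The part of these shifts was not tested. In H16R Tcons 0 of 9 differed (4.19% of tested genes differed), with 0 at an unadjusted p under 0.05 by edgeR. As interactions, a test chosen after seeing the data, all 9 members passed the threshold with a negative value for WT IL-2 (3.97% of tested genes did), from -0.90 ± 0.20 in Zap70 to -0.54 ± 0.13 in Lat. For H16R 4 of 9 passed with a negative value (Cd3d, Cd3g, Lck and Fyn, 1.13%), and for 3x all 9 did (7.66%), from -0.77 ± 0.16 in Fyn to -0.47 ± 0.17 in Lcp2. All 3 share the same 4 PBS mice, 2 in each arm. The H16R count fell to 1 when 1 of the 4 PBS Tcon libraries, either isotype H16R library or MHC II block H16R replicate 2 was left out, and the 3x count fell to between 5 and 7 whichever of its 8 libraries was left out, being lowest without MHC II block 3x replicate 2. The isotype WT IL-2 Tcon replicate 2, which held most Treg markers, read 304 CPM in Zap70, and without it the WT IL-2 interactions were smaller, from -0.64 ± 0.15 in Zap70 to -0.33 ± 0.09 in Lcp2, with Cd3e at -0.51 ± 0.13. That fit leaves 1 isotype WT IL-2 library and keeps the MHC II block WT IL-2 replicate 1. All 9 still passed, a count that fell to 6 without isotype PBS replicate 2.

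**Figure D4:**
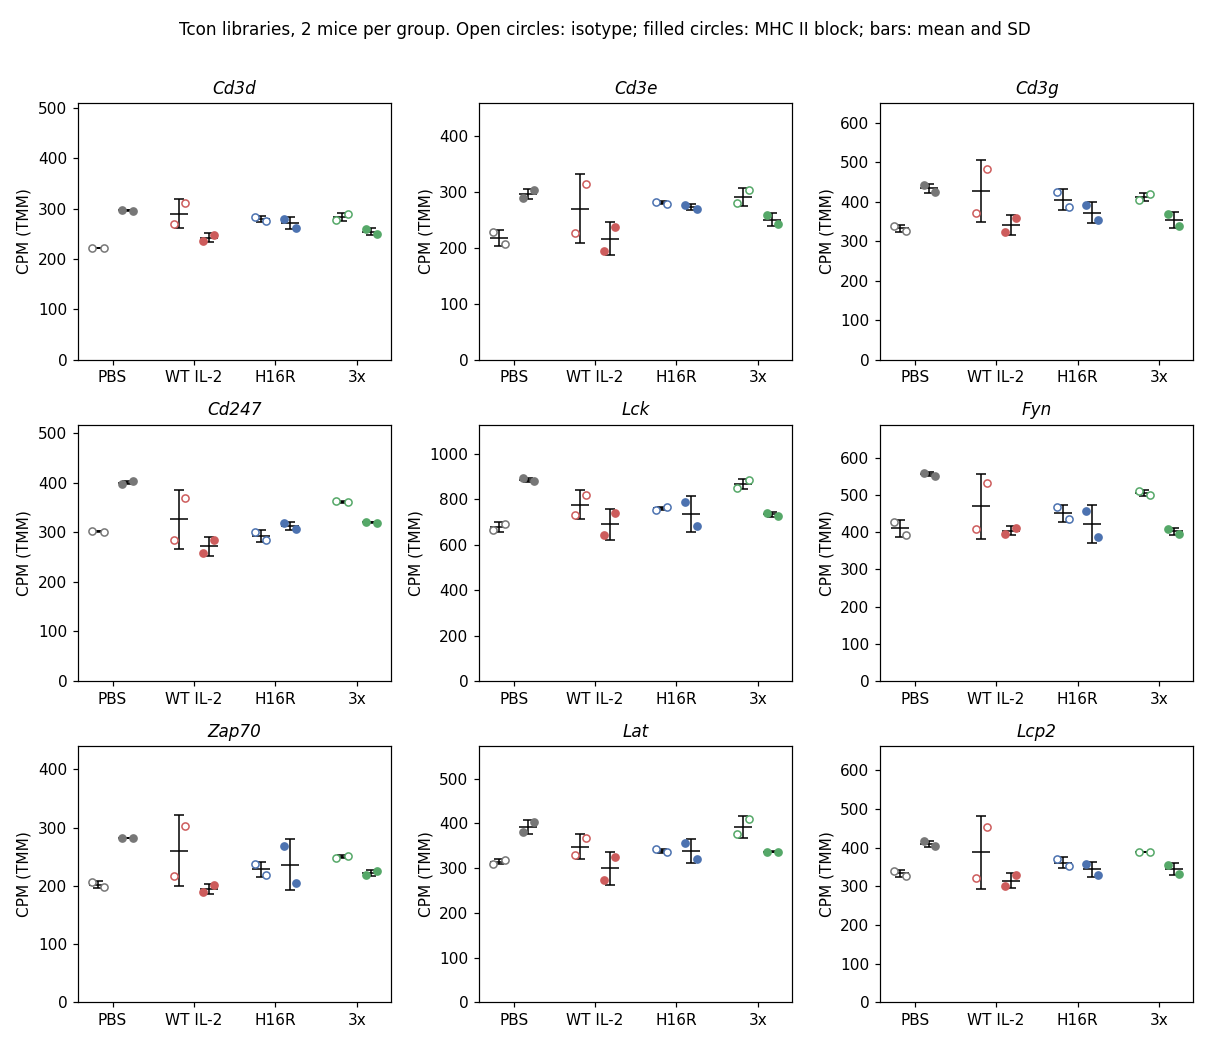
CPM (TMM-scaled) of the 9 members in the 16 Tcon libraries, 2 mice for each of 8 groups, with open circles for isotype antibody and filled circles for MHC II block. The filled PBS points lie above the open PBS points in every panel, Cd3d reading 296 and 296 against 221 and 222.

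In the 16 mice with both cell types the Treg library was compared with the Tcon library of the same mouse, with the mouse as a block. All 9 members were higher in Tregs, where 41.7% of 12844 tested genes were higher. Lcp2 differed most (0.56 ± 0.03), followed by Cd3d (0.42 ± 0.02) and Cd3e (0.38 ± 0.03), and Lck least (0.15 ± 0.02). Lcp2, Cd3d and Lat were higher in the Treg library in 16 of 16 mice, Cd3e in 15, Cd3g and Fyn in 14, Zap70 in 13, and Cd247 and Lck in 12. The makeup of the fractions differed too, the CD4 T cell markers having a median sum of 3007 CPM in Tregs and 2018 in Tcons, the B cell markers 66.8 and 229, the NK markers 81.7 and 242, and the myeloid markers 101 and 208, and its part was not tested.

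The 4 PBS mice and the 12 IL-2 mice were also tested apart, and the smaller PBS group gives larger errors. In the 4 PBS mice 4 of 9 members were higher in Tregs (26.4% of tested genes were higher), Lcp2 (0.39 ± 0.06), Lat (0.18 ± 0.04), Cd3d (0.16 ± 0.05) and Zap70 (0.14 ± 0.06). Cd247 was higher in the Treg library in 0 of the 4 PBS mice and in all 12 IL-2 mice, and its log2 difference in PBS mice was -0.11 ± 0.05 (edgeR adjusted p = 0.11). Without the 3 mice of the libraries that stood apart, 7 of 9 passed in PBS mice, 6 higher and Cd247 lower in Tregs. In the 12 IL-2 mice all 9 were higher in Tregs (42.5% of tested genes were), from 0.18 ± 0.02 in Lck to 0.62 ± 0.03 in Lcp2.

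The response to IL-2 was also tested between the cell types, as the Treg minus Tcon difference with each molecule less that with PBS, averaged over the arms. In Tcons the members called against PBS were higher with isotype and lower with the block, so the averaged Tcon response describes neither arm alone. WT IL-2 gave a larger response in Tregs for 6 of 9 members (14.4% of tested genes), H16R for all 9 (25.5%) and 3x for 5 (27.5%). Cd247 had the largest differences after the muteins, 0.64 ± 0.07 for H16R and 0.38 ± 0.07 for 3x, while Cd3e (0.37 ± 0.09) and Cd3g (0.36 ± 0.07) led after WT IL-2. Lck and Lat passed for H16R (0.23 ± 0.06 and 0.14 ± 0.06), and the molecules were not tested against each other here. Without the mouse as a block the WT IL-2 count was 3, and without the 3 mice of the libraries that stood apart the counts were 8, 8 and 6, Lck passing for WT IL-2 (0.18 ± 0.06) and Lat no longer for H16R (0.12 ± 0.06). The Tcon PBS values behind these differences carry the B cell markers given above.

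**Figure D5:**
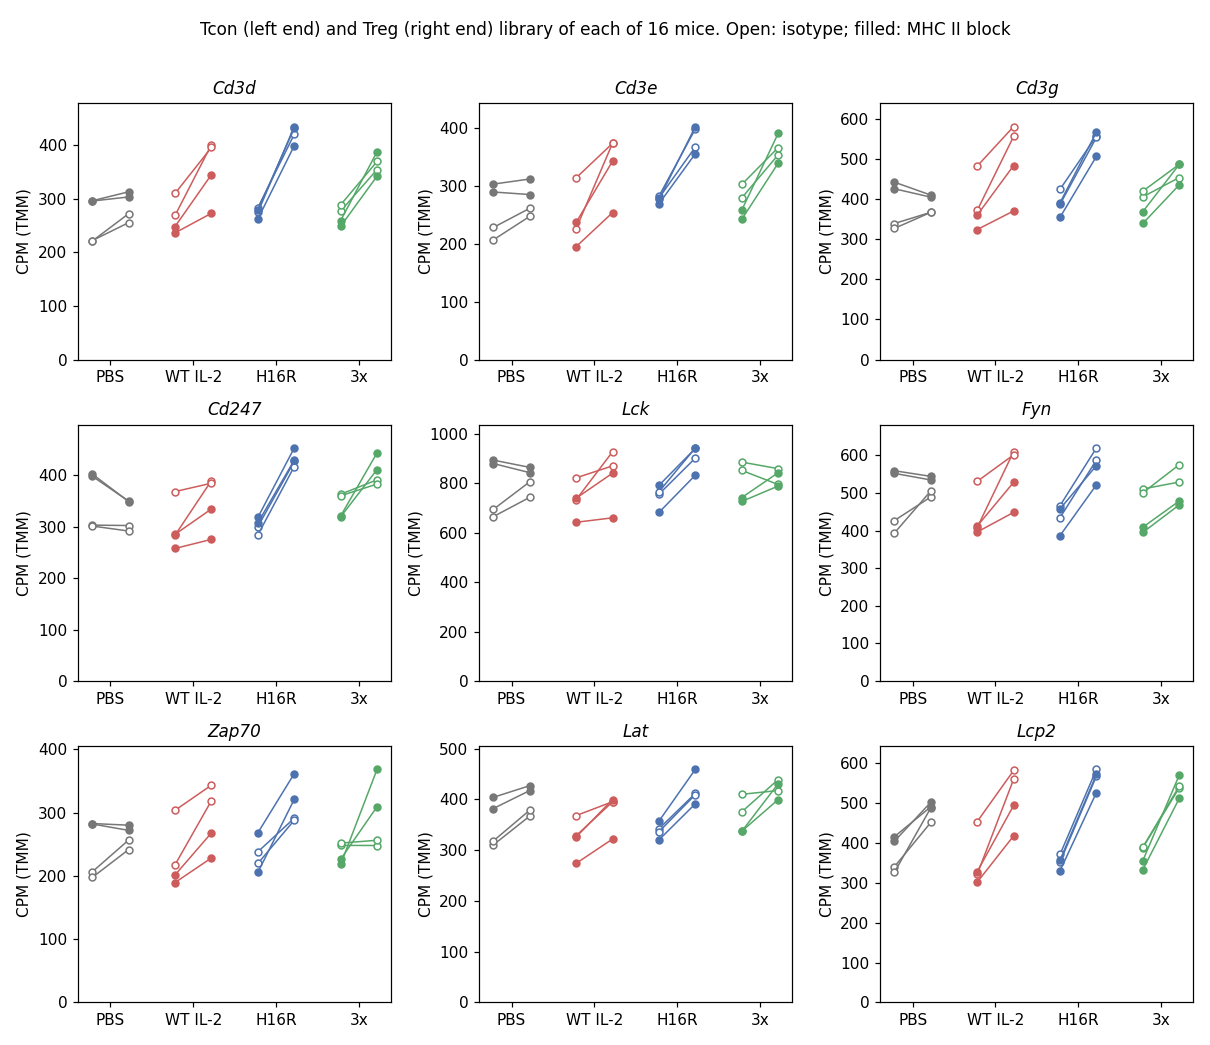
CPM (TMM-scaled) of each member in the Tcon (left end) and Treg (right end) library of the same mouse, 16 mice, with lines joining the libraries of a mouse and colours for the treatment. Lines of Lcp2 rise in all 16 mice, and those of Cd247 do not rise in any of the 4 PBS mice.

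The members belong to a larger pathway, for which 65 of 66 listed genes in 5 lists (the 9 members not among them) were tested. After IL-2 with isotype antibody 30 rose and 14 fell for WT IL-2 (median log2 fold change 0.10), 37 rose and 12 fell for H16R (0.22) and 31 rose and 11 fell for 3x (0.13), beside medians of -0.01 over all tested genes. These were 46.2%, 56.9% and 47.7% of the 65 higher, against 26.0%, 31.4% and 31.3% of all tested genes, and 21.5%, 18.5% and 16.9% lower, against 26.2%, 32.8% and 32.3%. For WT IL-2, H16R and 3x in turn, 9, 10 and 8 of the 14 tested inhibitors of TCR signalling rose and 1 fell each time. Of the 11 other receptor and coreceptor genes 6, 8 and 7 rose and 1 fell each time. Of the 16 adaptors and scaffolds 8, 10 and 10 rose and 6, 4 and 3 fell, and of the 13 kinases and their regulators 4, 6 and 4 rose and 3 fell each time. Of the 11 enzymes and exchange factors downstream of LAT 3, 3 and 2 rose and 3 fell each time, which is 27.3%, 27.3% and 18.2% higher, near or below the background. With MHC II blocked the whole set gave 16 higher and 8 lower for WT IL-2, 35 and 9 for H16R and 25 and 18 for 3x. The shares higher were 24.6%, 53.8% and 38.5%, against 21.9%, 32.7% and 34.7% of all tested genes, and the shares lower 12.3%, 13.8% and 27.7%, against 13.7%, 33.8% and 38.3%. The shares for WT IL-2 were thus near the background in both directions, and that for 3x on the higher side only. In WT IL-2 Tregs 27 of the 65 were lower and 9 higher with the block than with isotype, which is 41.5% and 13.8%, against 15.3% and 18.2% of all tested genes.

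By mean change over the 6 IL-2 comparisons, the strongest riser was Ubash3b (STS-1), a phosphatase that restrains ZAP70 (1.08 ± 0.04). Its mean level went from 63.9 ± 4.37 CPM (SD, n = 4) in isotype PBS Tregs to 154 ± 8.31 after H16R. Sla2, an adaptor that dampens TCR signalling (0.72 ± 0.04), and Nck2, an adaptor that links the TCR to the cytoskeleton (0.70 ± 0.03), followed. Among those that fell most were Syk, the relative of Zap70 used by B and myeloid cells (-0.86 ± 0.25), and Cd2ap (-0.44 ± 0.05). Syk read 24.2 to 112 CPM in isotype PBS Tregs and 8.00 to 16.7 CPM over the isotype IL-2 groups, and 169 to 187 CPM in isotype PBS Tcons, groups that also held more B cell markers, whose part was not tested. Its fall was in the isotype arm (-1.95 ± 0.46, -2.45 ± 0.48 and -2.35 ± 0.47 for WT IL-2, H16R and 3x). Without the isotype PBS and MHC II block WT IL-2 libraries that stood apart these falls were smaller (-1.17 ± 0.24, -1.67 ± 0.25 and -1.58 ± 0.25), and the mean change was -0.64 ± 0.13. With the block Syk rose after WT IL-2 (1.43 ± 0.45), a call lost without those libraries (0.41 ± 0.23, edgeR adjusted p = 0.2), and had differences of -0.03 ± 0.46 and 0.19 ± 0.45 after H16R and 3x. Between the arms, averaged over the treatments, Syk (0.79 ± 0.23), Fcer1g (0.76 ± 0.14), an Fc receptor chain of myeloid and NK cells, and Txk (0.19 ± 0.04) were highest with the block, and Cd28 (-0.30 ± 0.05), the costimulatory receptor, Vav3 (-0.22 ± 0.03) and Rnf128 (-0.21 ± 0.09) lowest. In PBS Tregs alone, Syk (-1.30 ± 0.45) and Fcer1g (-0.85 ± 0.28) were lower with the block, while in the 3 IL-2 groups both were higher. Without the libraries that stood apart the Syk difference in PBS Tregs no longer passed (-0.52 ± 0.24, edgeR adjusted p = 0.16), Fcer1g was still lower (-0.79 ± 0.19), and in WT IL-2 Tregs both were still higher by smaller amounts (1.06 ± 0.23 for Syk and 0.72 ± 0.18 for Fcer1g).

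Over the 32 Treg libraries the log2 CPM of the CD3 genes of the chromosome 9 cluster followed each other closely, Pearson's r being 0.960 for Cd3d and Cd3e, 0.945 for Cd3d and Cd3g and 0.887 for Cd3e and Cd3g. Fyn and Zap70 were the least alike of the 36 pairs (r = 0.175), and Fyn and Cd247 were next (r = 0.321). The libraries share groups, treatments and the makeup of their fractions, so these values describe and are not tested. Of all tested genes those most like Cd3d were Rnaset2b (0.977), Sash3 (0.961) and Cd3e, most like Cd3e were Cd3d, Rinl (0.951) and Rnaset2b, and most like Cd3g were Cd3d, Sh2d2a (0.944) and Rnaset2b. Cd247 was closest to Cnn2 (0.956), Sept9 and Lime1, Lck to Cd5 (0.821), Tesc and Arhgap10, and Fyn to Izumo1r (0.902), Arhgef3 and Bmp7. Zap70 was closest to Jak3 (0.920), Ptgfrn and Lag3, Lat to Scamp3 (0.877) and Ecm1, and Lcp2 to Prkch (0.948), Tox4 and Cd4.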

How the data were processed

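RNA of bead-isolated splenic Tregs (32 libraries) and Tcons (16 libraries) was sequenced from stranded poly(A) libraries. The authors aligned the reads to mouse B38 with OSA and deposited expected counts and FPKM per gene from an Omicsoft RSEM, and the strand setting of the counting is not given in the sources used here. The deposited tables of the authors' own DESeq2 1.30.1 comparisons hold fold changes, log2 fold changes, p-values and test statistics and were not used.

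Expected counts were rounded (72.6% of nonzero values as deposited had no decimal part at all), and protein-coding genes (matched by symbol, 96.6% of 53345 genes in GENCODE vM21) above 0.5 CPM in at least 4 libraries were scaled by TMM and tested with the quasi-likelihood test of edgeR 4.0.16 in R 4.3.3. Benjamini-Hochberg adjustment ran over all genes tested in a comparison, with a threshold of 0.1. Treg and Tcon libraries were fitted separately, the Tcon main comparisons with the antibody arms averaged, and Tregs against Tcons with the mouse as a block, since the labels name the mouse of each library. Deviations of the 2 libraries of a mouse from their group means correlated with a median r of 0.26. With 2 mice a group these deviations mirror each other, so both mice of a group give the same r and do not count separately. CPM in the text is the rounded expected count per 1000000 of the TMM-scaled library size. FPKM, a per-length unit, served to compare genes and, as log2(FPKM + 1) or log2(FPKM + 0.1) in limma 3.58.1, as an alternative to the counts. The other alternatives were DESeq2 1.42.0, RLE and total-count scaling, no low-count filter, every biotype, only the groups compared, empty cells read as 0, the replicate number as a block, single arms and leaving out each library. The scripts were tested on simulated data in which few genes were changed. There edgeR recovered 6% of the genes changed by log2 0.25 and 74% of those changed by 0.5 for WT IL-2 against PBS in isotype Tregs. For H16R in Tcons the shares were 18% and 84%, so small changes can be missed.

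The 9 members, the pathway and marker lists and the rules were chosen with earlier results of these data known. Named pathway genes were the 3 with the largest rise and fall past the threshold in the mean of a family of comparisons, at a mean above 5 CPM, and some genes that these rules name are not reported here. The labels do not say more of the mice than a number each, 2 isotype WT IL-2 Treg libraries carry the same one and differed beyond sampling noise, and p-values measure the spread between libraries. Libraries of 18.3M counts or more leave counting error small for these genes. Cd3e, Cd247, Fyn, Zap70 and Lcp2 overlap genes on the other strand, whose reads could not be told apart if the counting ignored strand.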

Additional observations from a re-analysis of the deposited data

Results flagged for a closer look

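Of the 72 groups of 4 Treg libraries (9 members in 8 groups), 2 held a library far from the others by Dixon's test, where chance alone marks about 1 in 20 groups. Cd3e in isotype WT IL-2 Tregs was lowest in replicate 3b at 325 CPM, where the nearest library read 373 CPM. Zap70 in MHC II block 3x Tregs was lowest in replicate 2 at 309 CPM, where the nearest read 365 CPM.

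The response to IL-2 in Tregs differed between the antibody arms in 13 of 27 tests by the edgeR interaction. These were 9 of 9 for WT IL-2 (7.98% of tested genes were negative), 1 of 9 for H16R (8.47%) and 3 of 9 for 3x (39.0% in either direction). The H16R and 3x counts were near or below these shares. The log2 differences, MHC II block minus isotype, were -0.54 for Cd3d, -0.48 for Cd3e, -0.48 for Cd3g, -0.43 for Cd247, -0.33 for Lck, -0.34 for Fyn, -0.51 for Zap70, -0.28 for Lat and -0.25 for Lcp2 after WT IL-2. After H16R the difference was -0.19 for Fyn, and after 3x the differences were -0.25 for Cd3d, -0.28 for Fyn and 0.35 for Zap70.

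The same difference between the arms passed in 22 of 27 tests in Tcons, all negative. These were 9 of 9 for WT IL-2 (3.97% of tested genes were negative), 4 of 9 for H16R (1.13%) and 9 of 9 for 3x (7.66%). The H16R and 3x counts fell when single libraries were left out. After WT IL-2 the values were -0.68 for Cd3d, -0.77 for Cd3e, -0.70 for Cd3g, -0.67 for Cd247, -0.56 for Lck, -0.66 for Fyn, -0.90 for Zap70, -0.54 for Lat and -0.60 for Lcp2. After H16R they were -0.46 for Cd3d, -0.50 for Cd3g, -0.43 for Lck and -0.53 for Fyn, and after 3x they were -0.57 for Cd3d, -0.66 for Cd3e, -0.60 for Cd3g, -0.58 for Cd247, -0.62 for Lck, -0.77 for Fyn, -0.65 for Zap70, -0.54 for Lat and -0.47 for Lcp2. These tests share 2 PBS mice in each arm.

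The response to IL-2 was larger in Tregs than in Tcons of the same mice in 20 of 27 tests. These were 6 of 9 for WT IL-2 (14.4% of tested genes), 9 of 9 for H16R (25.5%) and 5 of 9 for 3x (27.5%). The WT IL-2 count was 3 without the mouse as a block. The responses are averaged over arms in which the Tcon calls ran in opposite directions. The log2 differences of the responses were 0.26 for Cd3d, 0.37 for Cd3e, 0.36 for Cd3g, 0.34 for Cd247, 0.22 for Fyn and 0.23 for Zap70 for WT IL-2. For H16R they were 0.48 for Cd3d, 0.36 for Cd3e, 0.48 for Cd3g, 0.64 for Cd247, 0.23 for Lck, 0.30 for Fyn, 0.32 for Zap70, 0.14 for Lat and 0.31 for Lcp2, and for 3x 0.29 for Cd3d, 0.32 for Cd3e, 0.27 for Cd3g, 0.38 for Cd247 and 0.19 for Lcp2.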

How the results depend on the processing

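In 17 of 32 comparisons the number of members called stayed within 1.5 times its value in every alternative. The cause of the changes below was not tested, except that single arms and left-out libraries use fewer samples. With every biotype tested, the count went to 2 for WT IL-2 against PBS in MHC II block Tregs, 1 for the block in PBS Tregs, 0 for the H16R interaction in Tregs (also 0 with no low-count filter), 2 for H16R in Tcons and 1 for the H16R interaction in Tcons. With only the groups compared in the fit, it went to 2 for WT IL-2 in MHC II block Tregs, 0 for the block in PBS Tregs, 3 for H16R against WT IL-2, 5 for 3x against WT IL-2 and 6 for 3x against H16R, all 3 with isotype. H16R against WT IL-2 with isotype gave 2 by DESeq2, by total counts and by limma on log2(FPKM + 1) and log2(FPKM + 0.1), and H16R in Tcons gave 2 by total counts and by both limma fits. Without the libraries that stood apart, an alternative added once the data had been seen, the counts became 2 for WT IL-2 in MHC II block Tregs, 2 for the H16R interaction in Tregs, 7 for WT IL-2 in Tcons, 1 for the block in Tcons and 7 for Tregs against Tcons in PBS mice.

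Within the isotype arm the Tcon counts were 2 (WT IL-2, where the direction reversed and Cd247 stood at 0.11), 3 (H16R, also reversed) and 4 (3x), and within the MHC II block arm 9, 3 and 5. In the block arm Cd3d and Cd3g reversed to -0.29 and -0.34 after WT IL-2 and to -0.22 and -0.29 after 3x, with Lck at -0.27. For the block in Tcons the counts were 8 within PBS mice, 1 within WT IL-2 mice and 3 within 3x mice, and within PBS mice the log2 differences reversed to 0.42 (Cd3d), 0.44 (Cd3e), 0.38 (Cd3g), 0.38 (Lck), 0.44 (Fyn), 0.48 (Zap70) and 0.32 (Lat).

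Leaving out each library in turn gave counts of 0 to 5 (WT IL-2 in MHC II block Tregs), 0 to 3 (block in PBS Tregs), 1 to 2 (H16R against WT IL-2, isotype), 1 to 4 (3x against H16R, isotype), 1 to 2 and 2 to 5 (H16R and 3x interactions in Tregs), 1 to 7, 0 to 1 and 0 to 3 (WT IL-2, H16R and block in Tcons), and 1 to 5 and 5 to 7 (H16R and 3x interactions in Tcons). The replicate numbers did not pair libraries of different groups (mean r 0.01 over 112 pairs), and with the number as a replicate block the counts became 8 for the block in WT IL-2 Tregs, 2 in 3x Tregs and 8 for the WT IL-2 interaction, and 3 and 8 for the H16R and 3x interactions in Tcons. Without the mouse as a replicate block, the WT IL-2 response of Tregs against Tcons gave 3.

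No member's log2 fold change reversed under DESeq2, RLE or total-count scaling, and no scaling moved the median of all genes by over 0.1. Total counts did move the share of all calls that were higher, from 48.8% to 38.4% for H16R with isotype, 61.5% to 44.0% for WT IL-2 with the block, 42.5% to 56.2%, 50.4% to 65.8% and 50.2% to 60.4% for the block in PBS, H16R and 3x Tregs, 47.6% to 30.0% for H16R against WT IL-2 with isotype, 50.3% to 61.2% for 3x against H16R with the block, 58.0% to 77.4% for the 3x interaction in Tcons, 50.5% to 38.9% and 51.4% to 39.1% for Tregs against Tcons in all and in IL-2 mice, and 55.2% to 40.5%, 53.6% to 36.6% and 52.0% to 40.3% for the 3 responses. With 2 Tcon mice a group, 1 library can decide a call.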
